A study of Homo sapiens with 6 samples.

Results

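The expression of 10 genes of the oxygen-sensing pathway was measured in HepG2, a cell line grown from a human liver tumour: the HIF alpha subunits HIF1A and EPAS1, the HIF prolyl hydroxylases EGLN1 and EGLN3, and the hypoxia target genes CA9, VEGFA, ADM, BNIP3, NDRG1 and ANKRD37. They were taken by gene symbol from the 57500 genes of the count tables, and all 10 had enough reads to be tested. Wild-type HepG2 cells received vehicle or 10 mM added glycine for 24 h in an ordinary cell culture incubator, and RNA from 3 libraries per group was sequenced. The standard medium already contains some glycine, so vehicle cells were not glycine-free, and neither group was made hypoxic. It is a single line, and its RNA cannot show which of these transcripts would be made in normal hepatocytes. The study gave glycine to the same line under hypoxia in other experiments, and the RNA-seq libraries compared here show glycine alone, under normoxia. The study describes the 3 libraries of each group as biological replicates.

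HIF is a transcription factor made of an oxygen-regulated alpha subunit, HIF1A or EPAS1 (also called HIF-2 alpha), and the constant partner ARNT. With oxygen present, the EGLN enzymes hydroxylate prolines of the alpha subunit, which the VHL ubiquitin ligase then marks for destruction, so that control of HIF is largely at the level of the protein and its RNA need not follow. When oxygen is short, the alpha subunit accumulates and switches on genes for blood vessel growth, acid removal, glucose use and mitochondrial turnover, among them EGLN3 and EGLN1, which act back on HIF. Liver cells express both alpha subunits, and hepatoma lines are known to make erythropoietin under hypoxia.

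HIF binds DNA at a short core, which can be read as ACGTG or GCGTG. The RefSeq promoter windows (GRCh38.p14, 250 bases before to 50 bases after the start) covered 8 of the 10 members, and NDRG1 and VEGFA had no entry. Of these 8 genes, 7 held ACGTG or GCGTG on either strand and 4 held ACGTG, while 48.4% and 21.4% of all 35116 windows did. The members are counted by gene, where HIF1A had a match in 1 of its windows and none in another, and the shares by window. The shares were not matched for base composition. Among hypoxia targets listed below, 29 of 32 genes outside glycolysis and 18 of 19 glycolytic genes with a window held either core. Of the oxygen-sensing genes listed below, 6 of 10 with a window did. These too are counted by gene, and a gene with several windows counts if any of them matched. The 4 windows with ACGTG are shown because they hold the more common form of the core in described HIF sites. They were also picked because the groups did not overlap for 3 of their genes. Groups did not overlap for 31.6% of all tested genes, and none of these 4 genes was called, so this ties no motif to glycine. Each is written 5′ to 3′ on the gene's strand, with capitals for every ACGTG or GCGTG and for their reverse complements CACGT and CACGC.
EGLN1, chr1:231422238-231422537, minus strand: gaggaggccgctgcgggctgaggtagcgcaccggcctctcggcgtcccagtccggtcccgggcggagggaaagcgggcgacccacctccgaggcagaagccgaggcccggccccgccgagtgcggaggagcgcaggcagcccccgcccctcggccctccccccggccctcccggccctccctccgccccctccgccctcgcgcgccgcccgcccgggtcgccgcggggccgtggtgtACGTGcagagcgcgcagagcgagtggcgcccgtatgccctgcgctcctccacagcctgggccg
CA9, chr9:35673678-35673977, plus strand: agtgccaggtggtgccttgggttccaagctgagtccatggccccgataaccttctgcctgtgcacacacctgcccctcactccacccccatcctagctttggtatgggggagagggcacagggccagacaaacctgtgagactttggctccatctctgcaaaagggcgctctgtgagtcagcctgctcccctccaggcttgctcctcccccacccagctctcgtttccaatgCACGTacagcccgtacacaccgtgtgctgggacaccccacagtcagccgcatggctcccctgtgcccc
BNIP3, chr10:131981874-131982173, minus strand: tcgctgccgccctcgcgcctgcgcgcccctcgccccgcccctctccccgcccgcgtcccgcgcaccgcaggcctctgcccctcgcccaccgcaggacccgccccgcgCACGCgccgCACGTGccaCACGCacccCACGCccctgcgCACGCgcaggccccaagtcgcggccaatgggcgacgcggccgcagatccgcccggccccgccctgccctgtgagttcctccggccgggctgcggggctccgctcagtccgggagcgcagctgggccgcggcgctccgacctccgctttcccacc
ANKRD37, chr4:185396591-185396890, plus strand: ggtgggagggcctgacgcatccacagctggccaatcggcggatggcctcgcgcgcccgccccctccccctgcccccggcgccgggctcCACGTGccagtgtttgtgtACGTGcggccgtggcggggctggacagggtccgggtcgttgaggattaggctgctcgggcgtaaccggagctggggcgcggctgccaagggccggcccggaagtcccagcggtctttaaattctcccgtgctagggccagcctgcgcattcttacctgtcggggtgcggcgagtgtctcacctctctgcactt
The EGLN1 window held 1 match, 13 bases before the start, and the CA9 window held 1, on the opposite strand, 18 bases before it. BNIP3 held 6 matches and ANKRD37 held 3. In both of these windows the ACGTG matches of the 2 strands overlapped to spell CACGTG, a palindrome that other basic helix-loop-helix factors also bind and that 7.26% of all windows held. ADM, HIF1A and EPAS1 each held a single GCGTG, and the EGLN3 window held neither core. These matches describe letters in a window, and no binding was measured in these libraries.

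The libraries held between 31795489 and 58815986 counts, with glycine replicate 2 the deepest. Between glycine and vehicle, 13.3% of 15492 genes with enough reads passed the test (edgeR quasi-likelihood, Benjamini-Hochberg threshold 0.05), with 6.71% higher and 6.54% lower. Groups did not overlap for 31.6% of tested genes. Liver cell markers were abundant, with a summed level of 29594 to 33653 CPM (counts for each 1000000 reads counted, after scaling of the libraries) with vehicle and 25411 to 29108 CPM with glycine. Of these 9 markers, 2 were called lower and 0 higher, and 8 had a log2 change below 0. Of 5 markers of other cells, PTPRC and COL1A2 were too low to test, COL1A1 and CD68 were called higher, and the summed level was 7.71 to 8.19 CPM with vehicle and 9.93 to 10.8 CPM with glycine. A gene on the same strand covers 81.7% of the exon length of CD68. The part of these shifts in the members' values was not tested. In bulk RNA a change in the number of cells that make a transcript and a change in its level per cell cannot be told apart.

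The alpha subunits were the most abundant members. Per kilobase of exon, HIF1A stood at 42.2 ± 2.28 CPM (SD, n = 3) with vehicle, higher than 92.6% of tested genes, and EPAS1 at 34.2 ± 0.861 CPM. They were followed by BNIP3 (15.5), EGLN1 (11.1), NDRG1 (6.54), VEGFA (3.67), ADM (2.48), ANKRD37 (0.742), CA9 (0.249) and EGLN3 (0.0473 CPM per kilobase). In the vehicle libraries no member overlapped its neighbour in this order. EGLN3 lay above only 0.981% of tested genes per exon length, and CA9 above 10.4%. The order of the group means was the same with glycine, but HIF1A (34.2 to 40.4) then overlapped EPAS1 (34.3 to 37.7), and ANKRD37 (0.534 to 0.808) overlapped CA9 (0.298 to 0.542 CPM per kilobase). Exon length here is that of all annotated exons joined, so a gene with long unused exons is placed too low.

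**Figure D1:**
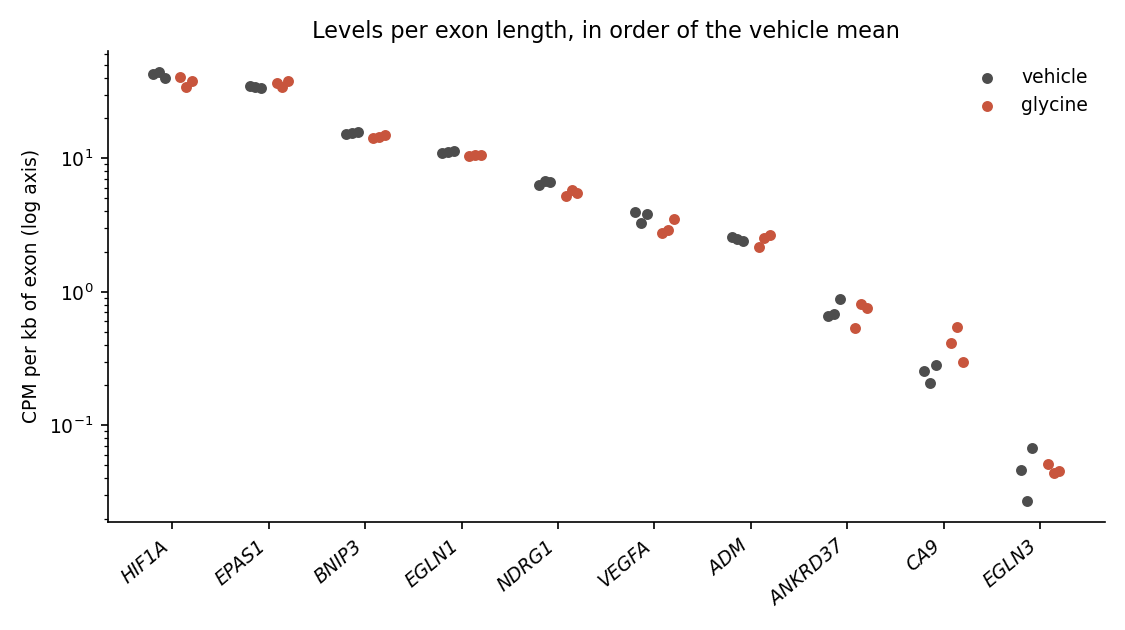
CPM per kilobase of exon on a log axis for each member, 3 vehicle and 3 glycine libraries per gene, with each point a library. HIF1A and EPAS1 lie at the top between 33.4 and 44.2, and EGLN3 lies at the bottom below 0.07.

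Among the 10 members, 1 was called lower and 0 were called higher, which is 10% against the 13.3% of all tested genes. The groups did not overlap for 4 of 10 members (EGLN1, CA9, BNIP3 and NDRG1), against 31.6% of all tested genes. A share this near the background is not a result about the members. Of their log2 changes 8 were below 0 and 2 above, with a median of -0.07, where the median of all tested genes was 0.00. At an unadjusted p under 0.05 there were 4 members (HIF1A, CA9, VEGFA and NDRG1), against 27.3% of all tested genes.

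**Figure D2:**
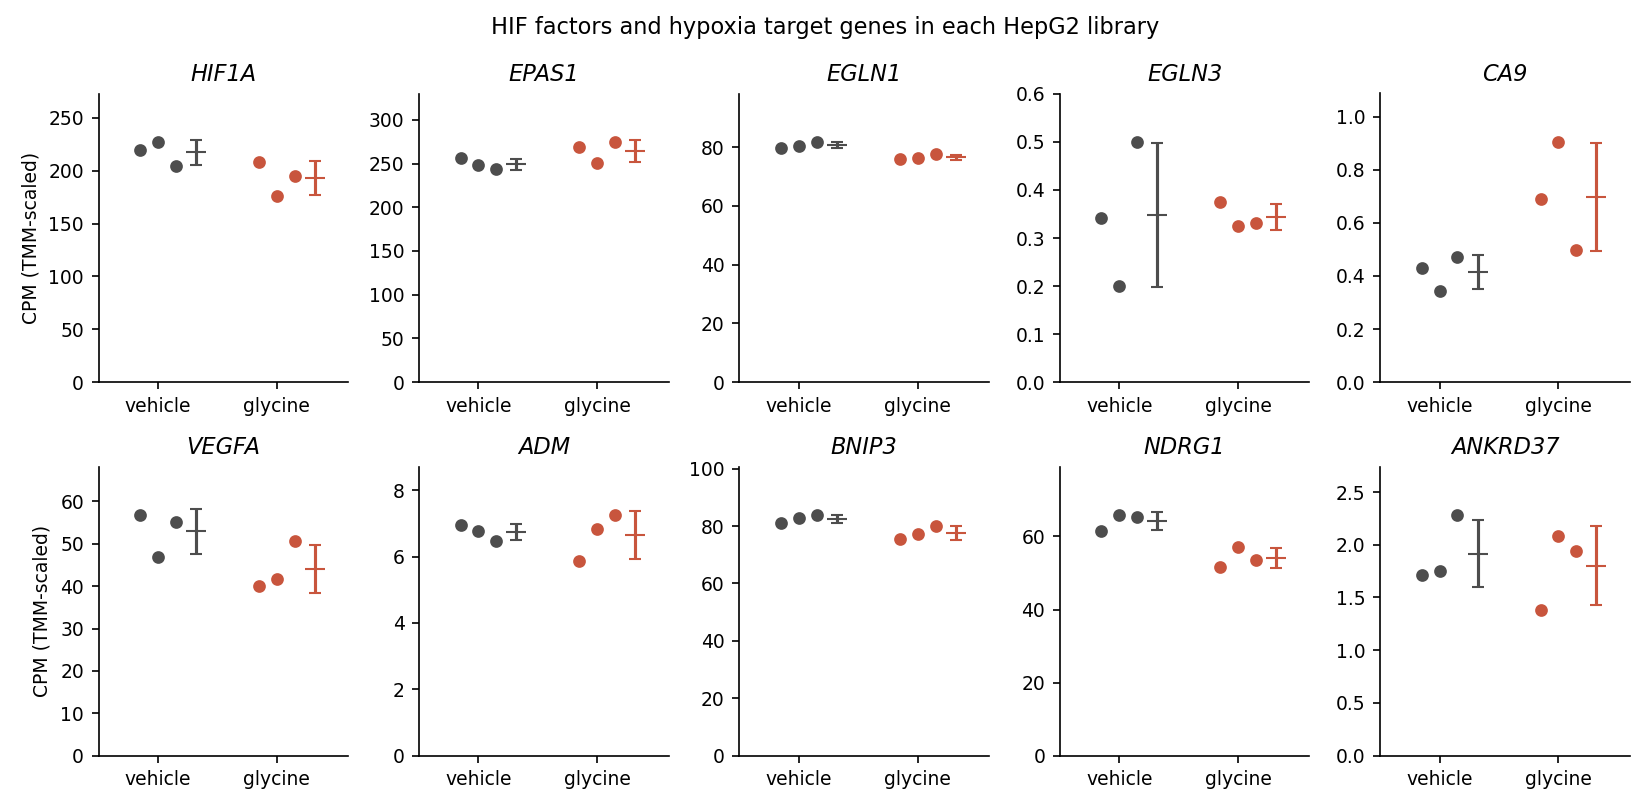
Scaled CPM of each member in each library, on an axis from 0 for each gene. Points are libraries, and the bar beside them is the mean with the SD of 3 libraries. NDRG1 lies lower in all 3 glycine libraries (51.7 to 57.1) than in any vehicle library (61.5 to 65.9), and CA9 lies higher at under 1 CPM.

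HIF1A (ENSG00000100644, chromosome 14, 61695513 to 61748259) encodes the alpha subunit of HIF-1. It was at 219.8, 227.5 and 204.4 CPM in the vehicle libraries and at 208.1, 176.3 and 195.4 CPM in the glycine libraries. The ranges overlapped, since glycine replicate 1 lay above vehicle replicate 3. The log2 change was -0.17 ± 0.0733 (s.e.), with a 95% interval from -0.33 to -0.01 before any adjustment, and it did not pass the test over all genes (edgeR adjusted p = 0.153). The change was -0.11 without glycine replicate 2 (edgeR adjusted p = 0.454). Other genes cover 5.14% of its exon length, and its antisense RNA HIF1A-AS1 had between 0 and 5 counts per library.

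EPAS1 (ENSG00000116016, chromosome 2, 46293667 to 46386703), the alpha subunit of HIF-2, was at 256.1, 248.7 and 243.6 CPM with vehicle. With glycine it was at 268.4, 250.4 and 275.1 CPM. The lowest glycine library lay within the vehicle range, and the others lay above it. Its log2 change of 0.08 (95% interval -0.05 to 0.22) was not called (edgeR adjusted p = 0.43), and it was 0.046 without glycine replicate 3 (edgeR adjusted p = 0.763).

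The ratio of the alpha subunits can be read within a library, where scaling of the libraries plays no part. The log2 ratio of HIF1A to EPAS1 counts was -0.22, -0.13 and -0.25 in the vehicle libraries. In the glycine libraries it was -0.37, -0.51 and -0.49. All 3 glycine libraries lay below all 3 vehicle libraries, and the mean ratio moved from -0.20 ± 0.0645 to -0.46 ± 0.077 (SD, n = 3), a difference of -0.26 (exact permutation test, two-sided, p = 0.1, the smallest that 3 libraries against 3 allow). Per exon length, HIF1A was 1.23 times EPAS1 with vehicle and 1.03 times with glycine. That test cannot pass the threshold with so few libraries, and neither gene was called on its own.

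EGLN1 (ENSG00000135766, chromosome 1, 231363751 to 231425044), also known as PHD2, is the main prolyl hydroxylase that marks HIF alpha for destruction. It was at 79.8, 80.5 and 81.8 CPM with vehicle and 75.8, 76.4 and 77.5 CPM with glycine. Every glycine library was below every vehicle library, but the log2 change was only -0.08, with a 95% interval from -0.20 to 0.05 (edgeR adjusted p = 0.439). A fall of more than 13% lay outside that interval.

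EGLN3 (ENSG00000129521, chromosome 14, 33924231 to 34462774), also known as PHD3, is a prolyl hydroxylase that hypoxia induces strongly in many cell types. It had 12, 7 and 18 counts in the vehicle libraries, or 0.343, 0.201 and 0.501 CPM. In the glycine libraries it had 12, 19 and 14 counts, or 0.376, 0.325 and 0.332 CPM, all within the vehicle range. Its log2 change of -0.04 had a 95% interval from -0.80 to 0.73 (edgeR adjusted p = 0.962), so a change of moderate size was not detectable at this depth.

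The targets with secreted products gave no call. VEGFA (ENSG00000112715, chromosome 6), the main growth factor for blood vessels, was at 56.8, 47.0 and 55.2 CPM with vehicle and at 40.1, 41.8 and 50.6 CPM with glycine. The highest glycine library, replicate 3, lay above the lowest vehicle library, replicate 2. The log2 change was -0.26 ± 0.0948 (s.e.), with an edgeR adjusted p of 0.0882. VEGFA was called lower when either of those libraries was left out (edgeR adjusted p = 0.0236 without glycine replicate 3 and 0.0324 without vehicle replicate 2). It lay further from the threshold without vehicle replicate 1 or 3 or glycine replicate 1 or 2 (edgeR adjusted p from 0.168 to 0.251).

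ADM (ENSG00000148926, chromosome 11, 10304680 to 10307397) encodes adrenomedullin, a peptide that widens vessels. Its levels of 6.96, 6.77 and 6.48 CPM with vehicle lay inside the glycine range of 5.86, 6.84 and 7.25 CPM. The log2 change was -0.01 and the 95% interval ran from -0.24 to 0.22 (edgeR adjusted p = 0.958).

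CA9 (ENSG00000107159, chromosome 9, 35673856 to 35681159) encodes carbonic anhydrase IX, a cell-surface enzyme that handles the acid of glycolytic cells and is widely used as a marker of hypoxia. It was scarce, at 0.428, 0.344 and 0.473 CPM with vehicle (15, 12 and 17 counts). It was at 0.689, 0.906 and 0.498 CPM with glycine (22, 53 and 21 counts). All glycine libraries lay above all vehicle libraries, with a log2 change of 0.77 and a 95% interval from 0.13 to 1.42, and the change did not pass the test over all genes (edgeR adjusted p = 0.111). The log2 change was 0.49 without glycine replicate 2, the library with the most CA9.

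ARHGEF39 lies on the opposite strand and covers 38.5% of the exon length of CA9. It was itself called higher, from 10.1 ± 1.30 to 13.9 ± 0.947 CPM (SD, n = 3), by 0.45 on the log2 scale (edgeR adjusted p = 0.0106). The strand setting of the counting is not given in the sources used here, so reads of these 2 genes cannot be told apart with certainty, and the part of ARHGEF39 in the CA9 values was not tested. CA12, which encodes a related cell-surface carbonic anhydrase, was also scarce, with a mean of 0.255 CPM with vehicle and 0.528 CPM with glycine (log2 change 1.05, edgeR adjusted p = 0.0777, not called). CA12 was added after its values were seen. It had 13, 6 and 8 counts with vehicle and 19, 37 and 15 with glycine. Its vehicle libraries alone held too few reads for it to be tested.

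BNIP3 (ENSG00000176171, chromosome 10, 131966455 to 131982013) encodes a mitochondrial outer membrane protein that takes part in the removal of mitochondria. It was at 80.9, 82.7 and 83.8 CPM with vehicle and at 75.4, 77.2 and 80.0 CPM with glycine. The groups did not overlap, though by less than 1 CPM, and the log2 change of -0.09 (95% interval -0.22 to 0.04) was not called (edgeR adjusted p = 0.371). The table lists 44 BNIP3 pseudogenes, which together drew between 13 and 44 counts per library, where BNIP3 drew between 2406 and 4520.

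NDRG1 (ENSG00000104419, chromosome 8, 133237171 to 133302022), a cytoplasmic stress-response protein tied to differentiation and growth arrest, was the member that passed the test. Its levels were 61.5, 65.9 and 65.5 CPM with vehicle and 51.7, 57.1 and 53.7 CPM with glycine. Every glycine library was below every vehicle library. NDRG1 fell by 15.6%, or by 0.25 ± 0.0652 (s.e.) on the log2 scale, with an edgeR adjusted p of 0.0252. The fall was smaller than the median absolute log2 change of called genes, 0.40. The call was lost without vehicle replicate 2 (edgeR adjusted p = 0.0615), vehicle replicate 3 (0.053), glycine replicate 1 (0.11) or glycine replicate 3 (0.077), while the log2 change stayed between -0.29 and -0.22.

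ANKRD37 (ENSG00000186352, chromosome 4, 185396021 to 185400628), a small ankyrin-repeat protein encoded by a known HIF target, was at 1.71, 1.75 and 2.28 CPM with vehicle. With glycine it was at 1.38, 2.08 and 1.94 CPM, and the groups overlapped. The log2 change was -0.06 with a 95% interval from -0.47 to 0.35 (edgeR adjusted p = 0.878). UFSP2 covers 35.2% of its exon length from the opposite strand, and was called higher, from 19.2 ± 1.68 to 23.0 ± 1.02 CPM (SD, n = 3; log2 change 0.26, edgeR adjusted p = 0.0496).

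**Figure D3:**
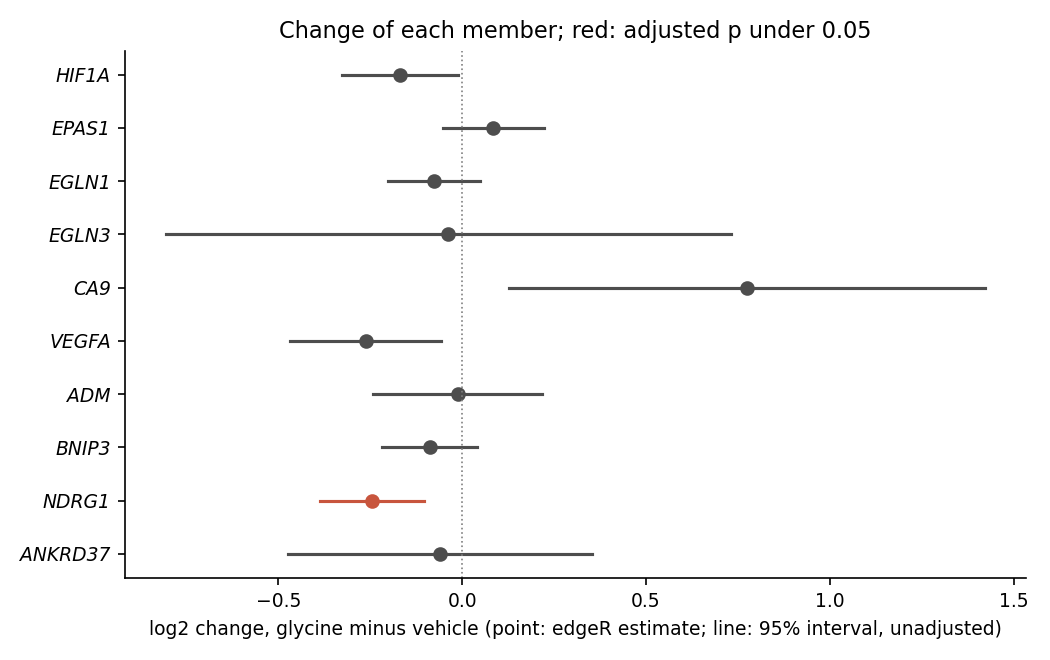
Log2 change of each member, glycine minus vehicle, with its unadjusted 95% interval; the dotted line marks no change. NDRG1, at -0.25, is the member past the threshold, CA9 and EGLN3 have the widest intervals, and the other 7 lie between -0.26 and 0.08.

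The libraries within a group did not order all members in the same way, but part of the order was shared. Vehicle replicate 3 held the highest vehicle value for 5 of 10 members and the lowest for 3. Glycine replicate 1 held the lowest glycine value for 6 members and the highest for 2. Glycine replicate 3 held the highest for 5 and the lowest for 1. EGLN1, VEGFA, ADM and BNIP3 all rose from glycine replicate 1 to 2 to 3, and the cause was not tested. The coefficient of variation within a group ran from 1.13% (EGLN1 with glycine) to 43.1% (EGLN3 with vehicle).

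The rest of the oxygen-sensing machinery was tested as a list of 13 genes, of which 12 were abundant enough. Of these, 1 was called lower and 0 higher, a share of 8.33% beside 13.3% over all tested genes, and the median log2 change was 0.00. CITED2, a small protein that competes with HIF for its coactivators and is itself a HIF target, was at 28.6, 24.3 and 32.05 CPM with vehicle and at 18.045, 18.5 and 18.7 CPM with glycine. The groups did not overlap, and CITED2 fell by 0.62 ± 0.0926 on the log2 scale (s.e., edgeR adjusted p = 0.000666). The constant partners gave log2 changes of -0.02 for ARNT and -0.07 for ARNT2. The other prolyl hydroxylase EGLN2 gave 0.01 and the asparaginyl hydroxylase HIF1AN, which blocks coactivator binding, gave 0.05. The VHL ligase and its partners gave 0.01 for VHL, 0.08 for ELOB, 0.07 for ELOC, 0.00 for CUL2 and 0.03 for RBX1. The coactivators gave -0.17 for CREBBP and -0.15 for EP300. None of these 11 was called (edgeR adjusted p from 0.224 to 0.988), and their standard errors were between 0.0634 and 0.157. CREBBP and EP300 were called lower without vehicle replicate 3 (edgeR adjusted p = 0.0318 and 0.0388), with log2 changes of -0.26 and -0.26. EP300 was at -0.08 without vehicle replicate 1 and -0.08 without glycine replicate 2 (edgeR adjusted p = 0.695 and 0.701). HIF3A, a further alpha subunit, was too low to test, with 4, 3 and 2 counts with vehicle and 0, 1 and 1 with glycine.

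A wider list of 42 hypoxia targets outside glycolysis held 40 tested genes. Of these, 9 were called lower and 3 higher, a share of 30%. Over all tested genes the share was 13.3% in either direction, with 6.54% lower and 6.71% higher. The list was chosen with earlier results of these data known, so no test was made over it. The median log2 change of the 40 genes was -0.06. PLOD2, a lysyl hydroxylase, had the largest fall of the 40. It went from 269 ± 5.03 to 94.2 ± 5.72 CPM (SD, n = 3), a difference of -1.52 on the log2 scale (edgeR adjusted p = 3.11e-08). P4HA2, a subunit of the collagen prolyl hydroxylase, had a log2 change of -0.41 (edgeR adjusted p = 0.000619). P4HA1, which encodes a related subunit, had -0.27 (edgeR adjusted p = 0.0287) and was named after its values were seen. P4HA1 lost its call with total count scaling (edgeR adjusted p = 0.0509) and without vehicle replicate 1 (0.0866), vehicle replicate 3 (0.0635), glycine replicate 1 (0.0876) or glycine replicate 2 (0.111).

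The other lower genes have varied roles. INSIG2, which holds back sterol synthesis, went from 80.9 ± 5.97 to 52.8 ± 1.14 CPM (log2 change -0.62, edgeR adjusted p = 6.29e-05). AK4, a mitochondrial adenylate kinase, went from 195.8 ± 8.63 to 134.7 ± 4.04 CPM (log2 change -0.54, edgeR adjusted p = 8.44e-05). TMEM45A had a log2 change of -0.59, the nuclear receptor RORA -0.64, FAM162A, a mitochondrial protein, -0.37, and BNIP3L, the close relative of BNIP3, -0.31, with edgeR adjusted p from 0.000304 to 0.01. RORA missed the threshold without glycine replicate 2 (edgeR adjusted p = 0.0503).

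Among the targets called higher were LOXL2 and CXCR4. LOXL2, a lysyl oxidase-like enzyme of the matrix, rose by 0.66 on the log2 scale (edgeR adjusted p = 0.0012). CXCR4, a chemokine receptor, rose by 1.79 on the log2 scale but from only 0.161 ± 0.0188 to 0.571 ± 0.0679 CPM (edgeR adjusted p = 0.00328). Its counts were 6, 6 and 5 with vehicle and 20, 29 and 25 with glycine. It had enough reads to be tested through the glycine libraries alone, and an equally scarce gene that fell would have gone untested. Its call is nevertheless part of the share given for this list. PPFIA4 and COX4I2 were too low to test, with no library above 2 counts. The 28 targets that were not called had log2 changes between -0.29 and 1.05.

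Of 20 glycolytic targets of hypoxia, 4 were called higher and 0 lower, a share of 20%. Over all tested genes it was 13.3% in either direction and 6.71% higher. This list too was chosen with earlier results known, and no test was made over it. The 4 were PFKP, a phosphofructokinase (log2 change 0.76, edgeR adjusted p = 2.48e-05), ENO2, an enolase (0.34, 0.00578), the glucose transporter SLC2A3 (0.31, 0.00623) and the hexokinase HK2 (0.37, 0.0316). HK2 lost its call without vehicle replicate 2 (edgeR adjusted p = 0.0855), glycine replicate 1 (0.0689) or glycine replicate 3 (0.147). The other 16 had log2 changes between -0.22 and 0.18, and the list median was 0.07.

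**Figure D4:**
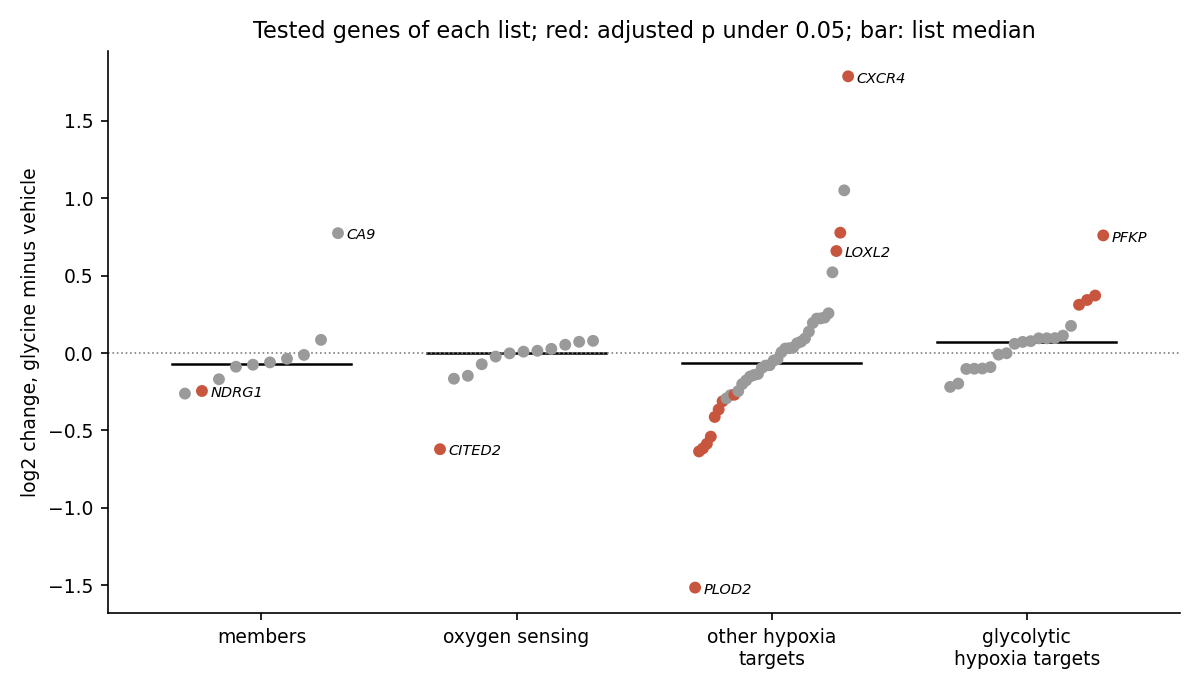
Log2 change of every tested gene in the 10 members and in the lists of 12 oxygen-sensing genes, 40 other hypoxia targets and 20 glycolytic hypoxia targets; each point is a gene, sorted within its list, red points passed the test and bars are list medians. The medians lie between -0.07 and 0.07, and PLOD2 and CXCR4 lie farthest from 0.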

How the data were processed

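RNA of 6 HepG2 libraries was sequenced, 3 per group by their titles. The authors deposited raw counts of reads per gene, 1 table per library with 57500 Ensembl genes. The submitters' processing notes name Trimmomatic 0.36, STAR 2.5.2b, featureCounts of Subread 1.5.2 and GRCh38, and the annotation release and strand setting are not given in the sources used here. Of these genes, 54773 had the same start and end in GENCODE release 29, from which symbols were taken where the name table had none, and 56898 had a symbol in all.

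Glycine and vehicle were compared by edgeR 4.0.16 (quasi-likelihood F-test, R 4.3.3) after its expression filter (minimum count 10, minimum total 15) and TMM scaling, with group as the sole term. Adjustment was by Benjamini-Hochberg across 15492 genes and 0.05 was the threshold. The standard error was taken as the log2 change divided by the square root of F, and intervals are 95% and unadjusted. A single count was worth 0.017 to 0.0314 CPM. Counting error is a lower limit on the error, since PCR copies cannot be told from separate molecules. Replicates of a group differed by a chi-square of 7.61 to 29.6 per degree of freedom, so none was a duplicate. The study calls the RNA-seq replicates biological and defines these in general as experiments on different days.

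The members and lists were chosen with earlier results of these data known. Named were all members, all oxygen-sensing genes, and in the other lists the genes past the threshold, at most 8 per direction, and those too low to test. One gene under this rule is not reported here. Alternatives were other scaling factors, other filters, DESeq2 1.42.0, limma 3.58.1 with voom, thinned counts, a block for replicate number, and fits lacking 1 library. The script was tested on simulated counts of 15492 genes, 200 of them changed by 1 on the log2 scale. It recovered 165 of the 200 (82.5%) and made 17 false calls.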

Additional observations from a re-analysis of the deposited data

How the results depend on the processing

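The members called were 0 higher and 1 lower under the other scaling factors, the filter of at least 1 CPM in 3 libraries, DESeq2, limma-voom, thinned counts and the replicate block. Without a filter on low genes 2 members were lower, NDRG1 and VEGFA, and 5 other hypoxia targets were higher. When each library was dropped in turn, which leaves fewer samples, the members called lower ran from 0 to 1, the oxygen-sensing genes called lower from 1 to 3, the other hypoxia targets from 3 to 4 higher and from 7 to 10 lower, the glycolytic targets called higher from 3 to 4, and the counts over all genes from 587 to 926 higher and from 655 to 1010 lower. Of all genes, 590 were higher without vehicle replicate 1, 594 without glycine replicate 1, 617 without glycine replicate 2 (655 lower) and 587 without glycine replicate 3, against 1040 higher and 1013 lower with every library. No member was called lower without vehicle replicate 3 or without glycine replicate 1, where NDRG1 was lost (edgeR adjusted p = 0.053 and 0.11), and without vehicle replicate 2 or glycine replicate 3 the 1 call was VEGFA in place of NDRG1. The replicate numbers did not pair the libraries: the correlation between deviations of libraries with the same number was -0.058, -0.027 and -0.003, that of libraries with different numbers ran from -0.198 to 0.214, and no library correlated best with its own number. The study states in general that each run of its cell assays held both control and treated samples. The labels do not say which libraries shared a day, so a block by number need not stand for one, and pairing by day was not tested. With the replicate number as a block, NDRG1 stayed lower (edgeR adjusted p = 0.0384), and 866 of all genes were higher and 918 lower. No member, oxygen-sensing gene or gene called in the other hypoxia lists changed its call, and other named genes were not checked. The difference in the log2 ratio of HIF1A to EPAS1 stayed between -0.30 and -0.22 without each library. Among the members and oxygen-sensing genes, the log2 change of 12 uncalled genes crossed 0. EGLN3 was at 0.042 with limma-voom, 0.031 with thinned counts and 0.014 with the block, ADM at 0.0015 with total count scaling and 0.0090 with thinned counts, EGLN2 at -0.0014 with thinned counts, and CUL2 at 0.012 with total count scaling and 0.0025 without a filter. Without each library in turn, the log2 change ran from -0.31 to 0.32 for EGLN3, -0.085 to 0.052 for ADM, -0.19 to 0.086 for ANKRD37, -0.050 to 0.0043 for ARNT, -0.21 to 0.030 for ARNT2, -0.036 to 0.052 for EGLN2, -0.019 to 0.12 for HIF1AN, -0.041 to 0.079 for VHL, -0.025 to 0.12 for ELOB, -0.010 to 0.14 for ELOC, -0.036 to 0.024 for CUL2 and -0.093 to 0.075 for RBX1. The cause was not tested. The filter of at least 1 CPM left EGLN3, CA9 and CXCR4 untested, DESeq2 gave no adjusted p for EGLN3 and CXCR4, and CXCR4 was not tested with thinned counts. EGLN3 and CA9 rest on between 7 and 53 counts per library, which limits both.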
